A study of Mus musculus with 24 samples.

Results

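The genes described here make, load and regulate the major histocompatibility complex (MHC) molecules that present peptides to T cells. They are B2m, H2-K1 and H2-D1 of class I, Tap1 and Psmb8 of the class I peptide supply, H2-Aa, H2-Ab1, H2-Eb1 and Cd74 of class II, and Ciita, the class II transactivator. These 10 genes were chosen by name out of 56748 gene identifiers. The rule itself uses no value, but earlier results of these data were known when the genes were chosen. All 10 passed the filter of a mean of 10 normalized counts, as did 17333 genes in all. Bulk poly A RNA of mouse kidney was profiled in 24 libraries, 6 each from females and males in the active and in the inactive period. Active and inactive refer to kidneys taken midway through the period in which the mice were awake or at rest. Sex and period are the only differences the labels give between the groups. The sources used here give no strain, age, clock time or agent, and do not say that each library is 1 animal. The p-values therefore measure the spread between these libraries, which may be partly technical.

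Class I molecules pair a heavy chain (H2-K1 or H2-D1) with the small subunit encoded by B2m, and they show peptides from inside the cell on nearly every nucleated cell. Those peptides are cut by the proteasome, in which interferon can replace constitutive subunits by immunoproteasome subunits such as Psmb8, and are carried into the endoplasmic reticulum by the transporter of which Tap1 is one chain. Class II molecules are pairs of an alpha and a beta chain (H2-Aa with H2-Ab1, and the beta chain H2-Eb1), guided by the invariant chain Cd74, and they show peptides taken up from outside. In kidney, class II is known mainly from resident macrophages and dendritic cells. Ciita switches class II genes on, and its relative Nlrc5 does so for class I. In the annotation of GRCm38, 7 of the 10 genes lie on chromosome 17, in the MHC itself, with Tap1 (34187553 to 34197225) and Psmb8 (34197721 to 34201454) side by side, while B2m is on chromosome 2 and Ciita on chromosome 16.

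The promoters are shown because the class I and class II genes share short control elements there. Each line gives the 180 bases before the start of the gene in RefSeq on build GRCm38.p6, read 5′ to 3′ on the gene's strand, with motif matches in capitals. The stretch of H2-Aa is chr17:34287824-34288003, reverse strand. The stretch of H2-Eb1 is chr17:34305687-34305866, forward strand. The stretch of B2m is chr2:122147507-122147686, forward strand. The stretch of H2-K1 is chr17:34000348-34000527, reverse strand. The stretch of H2-D1 is chr17:35262914-35263093, forward strand.
H2-Aa: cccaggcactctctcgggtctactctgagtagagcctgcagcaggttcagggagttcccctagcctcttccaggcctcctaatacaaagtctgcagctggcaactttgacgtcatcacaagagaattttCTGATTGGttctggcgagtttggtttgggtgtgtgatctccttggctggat
H2-Eb1: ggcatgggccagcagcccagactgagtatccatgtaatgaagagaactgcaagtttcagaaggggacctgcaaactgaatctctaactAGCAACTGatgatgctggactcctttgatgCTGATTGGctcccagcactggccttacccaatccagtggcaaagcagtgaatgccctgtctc
B2m: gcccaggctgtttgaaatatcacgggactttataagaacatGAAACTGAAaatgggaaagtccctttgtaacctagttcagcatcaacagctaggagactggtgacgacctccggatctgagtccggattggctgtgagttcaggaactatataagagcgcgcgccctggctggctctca
H2-K1: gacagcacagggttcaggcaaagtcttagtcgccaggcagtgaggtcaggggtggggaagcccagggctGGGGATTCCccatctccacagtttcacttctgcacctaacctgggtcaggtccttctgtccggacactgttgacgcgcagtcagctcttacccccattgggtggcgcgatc
H2-D1: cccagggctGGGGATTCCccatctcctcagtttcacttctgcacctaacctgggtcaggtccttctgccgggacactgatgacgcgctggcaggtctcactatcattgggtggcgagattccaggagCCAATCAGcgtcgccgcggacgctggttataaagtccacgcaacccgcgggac
The capitals mark the Y box CTGATTGG (CCAATCAG when read on the other strand), the core of the X box AGCAACNG in H2-Eb1, the core of the interferon element GAAANNGAA in B2m, and the kappa B core GGGGATTCC in H2-K1 and H2-D1. Both strands were searched in windows of 300 bases, from 250 before to 50 after the start, and no 2 matches overlapped in the lines printed. The Y box was in the windows of 5 of the 7 genes with an entry in the table, H2-K1, H2-D1, H2-Aa, H2-Eb1 and Tap1, and in 4.1% of all 32851 windows. From the start of H2-K1 used in its line it lies just downstream, and in Tap1 it lies 222 bases upstream, beyond a stretch of that length. The X box core was in 5.14% of windows, the interferon core in 8.56%, the kappa B core in 0.25% (82 windows) and the clock's E-box CACGTG in 7.15%. No window of these genes held that E-box. Such matches describe letters only. Only these spellings were searched, so a line without a match may still hold an element, such as the interferon element, in another spelling. H2-Ab1, Cd74 and Ciita were not in the table.

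Between the active and inactive periods none of the 10 genes passed the test in either sex, while males had lower levels than females of several of them. In the active period 3 of 10 were lower in males (B2m, Tap1 and Ciita), and in the inactive period 6 of 10 were (B2m, H2-K1, H2-Aa, H2-Ab1, Tap1 and Psmb8). No member was higher in males. Calls are adjusted p-values under 0.05 (limma on log2 of the normalized count plus 1, Benjamini-Hochberg over all 17333 genes). Male and female kidneys differed in much of the transcriptome, so these counts have to be read against 60.6% of tested genes called in the active period (30.1% higher and 30.5% lower in males) and 55.7% in the inactive period (27.9% higher and 27.8% lower). The share of members lower in males was thus near the background in the active period and above it in the inactive one. The median log2 fold of the members, male over female, was -0.21 in the active and -0.33 in the inactive period, and that of all tested genes -0.05 and -0.04. The authors' size factors averaged 1.10 and 1.13 in active and inactive females and 0.906 and 0.936 in active and inactive males. With all libraries scaled to equal totals, 10 of 10 members were lower in males in each period, and the median of all tested genes moved to -0.32 in both. The calls over all genes then split into 2635 higher and 8821 lower in the active period, against 5219 and 5290 with the deposited scaling, and into 2051 and 9054 in the inactive period, against 4844 and 4818.

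**Figure D1:**
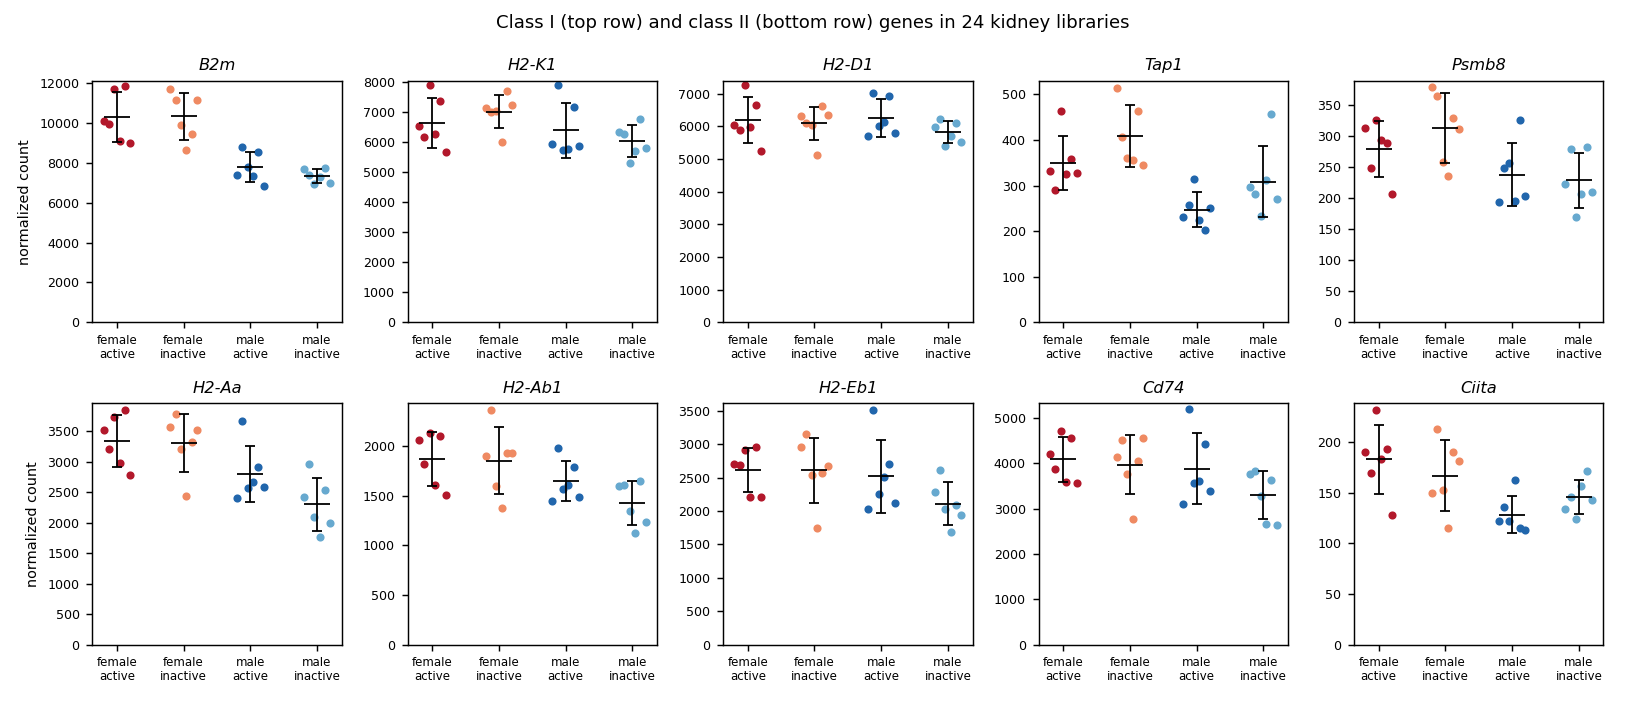
Normalized counts (vertical axes, each from 0) of the 10 genes in 24 libraries, with class I and its peptide supply above and class II with Ciita below; dots are libraries, bars the mean and SD of 6 libraries. The female and male dots of B2m do not overlap in either period, while those of every other gene do.

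Depth was alike in all groups, from 31039867 to 39302246 reads assigned to genes per library, recovered from the steps of the deposited values. The kidney identity of the samples was plain from the 8 proximal tubule markers, whose summed level ran from 193723 to 312989 normalized counts per library. Of these, 4 were higher and 4 lower in males in each period. Among 8 markers of other nephron segments and of podocytes, 6 were lower and 2 higher in males in the active period, and 5 were lower in the inactive period. Of 4 liver transcripts, a check for foreign tissue, 2 were higher and 2 lower in males in the active period, and 1 was higher and 2 lower in the inactive period, with sums of 738 to 1435 normalized counts per library. Only 1 of 5 neutrophil markers (Csf3r) reached the filter, and it passed in no comparison.

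B2m, the shared small subunit of all class I molecules, was the most abundant member and the one whose sexes were fully separated. Its lowest, median and highest libraries were at 9029, 10042 and 11869.7 normalized counts in active females and 8678, 10526 and 11698 in inactive females. In active males they were at 6847, 7592 and 8831, and in inactive males at 6939, 7343 and 7742. In each period every male library thus lay below every female one, by a small margin in the active period. From the highest, the group means were 10344 ± 1172 in inactive and 10303 ± 1246 in active females, then 7790.5 ± 764 in active and 7342 ± 342 in inactive males (SD, n = 6). B2m was 1.32-fold lower in males in the active period (log2 fold -0.40 ± 0.08 SE, adjusted p = 3.89e-05) and 1.40-fold lower in the inactive period (log2 fold -0.49 ± 0.08, adjusted p = 2.75e-06). The neighbouring levels of the 2 periods within a sex did not differ beyond their spread. Of all tested genes, 36.3% in the active and 32.3% in the inactive period also had no overlap between the sexes.

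The heavy chains H2-K1 and H2-D1, which bind the peptide, did not share the size of that difference. H2-D1 was at 6188 ± 699 in active and 6092 ± 515 in inactive females and at 6267 ± 576 in active and 5822 ± 332 in inactive males. Its log2 folds, male over female, were 0.02 ± 0.07 (interval -0.12 to 0.16) and -0.06 ± 0.07 (interval -0.20 to 0.08). Its sign in the active period turned with upper quartile scaling, with equal totals and without any 1 of active female replicate 6 and active male replicates 2 and 5 (log2 folds over all libraries left out -0.0244 to 0.0694), and of the alternatives run it was called there, lower in males, only with equal totals (log2 fold -0.25, adjusted p = 0.00402). H2-K1 was at 6644 ± 826, 7019 ± 551, 6397 ± 919 and 6033 ± 527 in the same order of groups. It was lower in males in the inactive period (log2 fold -0.22 ± 0.08, adjusted p = 0.0276), with overlapping groups, and in the active period its log2 fold was -0.06 ± 0.08 (adjusted p = 0.572). That call was lost without inactive female replicate 5 (adjusted p = 0.0665) or inactive male replicate 3, 4 or 6 (adjusted p = 0.0739, 0.0557 and 0.0508), and without the filter on low values (adjusted p = 0.0606). Part of the sequence of these genes is shared with relatives, 9.63% of the 50-base stretches of H2-K1 and 12.8% of those of H2-D1, against none in B2m.

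The balance of the subunits can be read within each library, free of any scaling. The ratio of B2m to H2-K1 counts was 1.55 ± 0.0692 in active females and 1.23 ± 0.0862 in active males, a log2 difference of -0.34 ± 0.05 (exact two-sided permutation test, p = 0.00216, the smallest 6 against 6 can give, adjusted p = 0.00649 over 24 ratio tests). In the inactive period the ratios were 1.48 ± 0.148 and 1.22 ± 0.0619 (log2 difference -0.27 ± 0.07, exact permutation p = 0.00649, adjusted p = 0.0156). Against H2-D1 the log2 differences were -0.42 ± 0.04 and -0.43 ± 0.06 (adjusted p = 0.00649 for both by the exact permutation test). B2m was thus lower in males also relative to either heavy chain. These ratios, and those of the proteasome given further on, were chosen after their values had been seen.

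The other class I genes, mostly the nonclassical heavy chains of the Q and T regions, moved in both directions. Of 15 others on the list, 12 were tested. In the active period 7 were lower and 2 higher in males, and in the inactive period 8 and 2 (with equal totals scaling 9 and 1, and 8 and 1). H2-Q6 fell from 274 ± 62.9 in females to 138 ± 19.1 in males in the active period (log2 fold -0.97 ± 0.15, adjusted p = 1.28e-06), and H2-Q7 had log2 folds of -0.64 ± 0.15 and -0.84 ± 0.15 in the active and inactive period (adjusted p = 0.000552 and 2.2e-05). H2-T24 was lower in males too (log2 folds -1.33 ± 0.15 and -1.10 ± 0.15, adjusted p = 9.44e-09 and 4.36e-07). H2-T22 went the other way, at 1753 ± 155 in active females and 3106 ± 393 in active males (log2 fold 0.82 ± 0.07, adjusted p = 1.13e-11). Of the 50-base stretches, 35% in H2-Q6, 26.5% in H2-Q7 and 53.5% in H2-T22 were found in other genes, so the counts of these 3 are uncertain, while for H2-T24 the share was 3.17%. Between the periods, 1 of the 12 was higher and 2 lower in active females, and 1 was lower in active males.

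Tap1, a chain of the peptide transporter, was lower in males in both periods. Its lowest, median and highest libraries were at 289.6, 330.1 and 463 normalized counts in active females and 345, 384 and 514 in inactive females. In active males they were at 202, 241 and 314, and in inactive males at 232, 288 and 458. The sexes overlapped in both periods, and 1 inactive male library lay far above the other 5. The log2 fold, male over female, was -0.50 ± 0.14 in the active period (adjusted p = 0.00215) and -0.42 ± 0.14 in the inactive period (adjusted p = 0.00924). Tap1 overlaps Psmb9 on the opposite strand. The sources used here do not say how reads were counted by strand, so some reads of either gene may have been assigned to the other. Its partner Tap2 had log2 folds of -0.29 ± 0.13 and -0.27 ± 0.13 that did not pass (adjusted p = 0.0516 and 0.065).

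Psmb8, an immunoproteasome subunit, was at 279 ± 44.4 in active and 313 ± 56.8 in inactive females and at 237 ± 50.7 in active and 228 ± 44.2 in inactive males. Its inactive female libraries ran from 235 to 378 and the inactive male ones from 170.1 to 283. It was lower in males in the inactive period (log2 fold -0.45 ± 0.14, adjusted p = 0.009), and in the active period its log2 fold was -0.24 ± 0.14 (adjusted p = 0.152). Without active male replicate 5 it passed there as well (adjusted p = 0.0442). The constitutive proteasome moved the opposite way. All 8 of its listed subunits were higher in males in both periods, with a median log2 fold of 0.71 and 0.56, and with equal totals scaling 8 and 7 of them still were. Psmb5, the constitutive subunit that Psmb8 replaces, was at 1117 ± 86.8 in active females and 2122 ± 239 in active males (log2 fold 0.92 ± 0.07, adjusted p = 6.69e-13).

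The ratio of immunoproteasome to constitutive subunit was lower in males. Psmb8 to Psmb5 was at 0.251 ± 0.0477 in active females and 0.111 ± 0.0166 in active males, and at 0.295 ± 0.05 and 0.128 ± 0.0286 in the inactive period. The sexes did not overlap in either period. The log2 differences were -1.16 ± 0.14 and -1.22 ± 0.17 (exact permutation p = 0.00216 and adjusted p = 0.00649 for both). The other 2 pairs of exchanged subunits passed too. Psmb9 to Psmb6 differed by -1.19 ± 0.22 and -0.96 ± 0.20 on the log2 scale (exact permutation test, adjusted p = 0.00649 and 0.0115), and Psmb10 to Psmb7 by -0.69 ± 0.14 and -1.04 ± 0.12 (adjusted p = 0.00649 for both). In the active period Psmb10 itself ran from 204 to 292 normalized counts in females and from 185 to 301 in males. Psmb7 ran from 1199 to 1299 and from 1759 to 2503 in the same groups. The active ratio of Psmb10 to Psmb7 was thus lower in males with overlapping Psmb10 levels and higher Psmb7. Psmb9 ran from 112 to 215 in active females and from 82 to 181 in active males. No ratio differed between the periods in either sex past the adjusted threshold, the smallest adjusted p being 0.137 for Psmb10 to Psmb7 in females by the exact permutation test. Psmb8 shares 11.9% of its 50-base stretches with other genes, nearly all with Gm20496, which lies across it on the opposite strand.

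**Figure D2:**
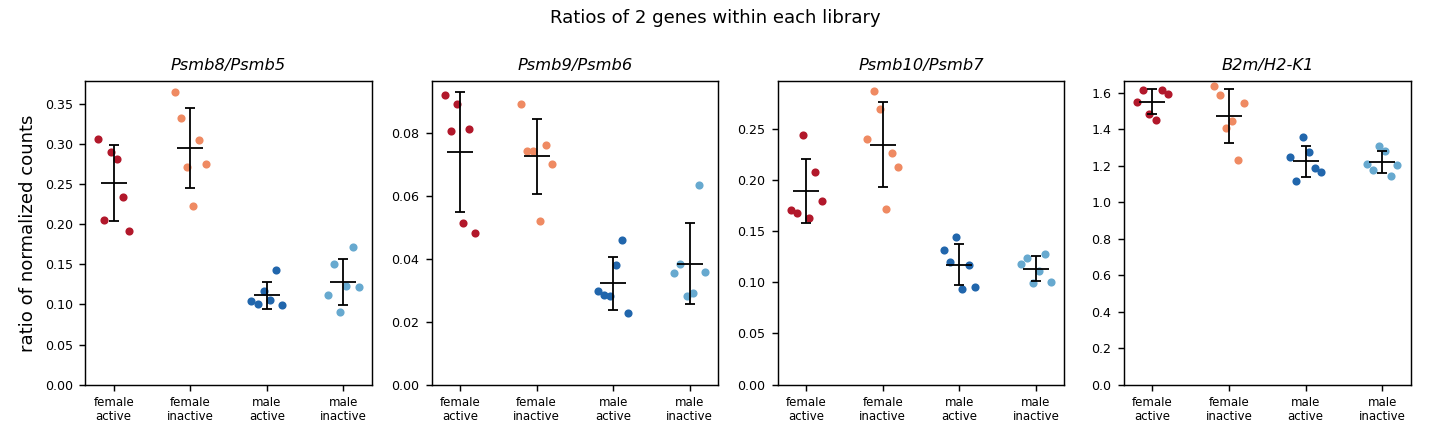
Ratio of the normalized counts of 2 genes within each library (vertical axes, each from 0), by group; dots are libraries, bars the mean and SD of 6. Every female library lies above every male library of its period for Psmb8 to Psmb5 and Psmb10 to Psmb7, and the B2m to H2-K1 ratio is near 1.5 in females and 1.2 in males.

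The rest of the class I peptide supply held no common direction. Of 12 further genes, all tested, 3 were higher and 2 lower in males in the active period and 4 and 3 in the inactive period. With equal totals scaling 1 was higher and 6 lower, then none and 8. Bcap31, an endoplasmic reticulum export factor, was higher in males in both (log2 folds 0.51 ± 0.05 and 0.36 ± 0.05). The chaperones Calr, Canx and Pdia3, which fold class I and many other proteins, were the 3 genes of the list that passed between periods in females, all higher in the active period. Calr was at 35709 ± 3746 in active and 22552 ± 3002 in inactive females (log2 fold 0.67 ± 0.10, adjusted p = 4.92e-05), and its log2 fold in males was 0.25 ± 0.10 (adjusted p = 0.0952). For Canx and Pdia3 the change differed between the sexes (interaction, adjusted p = 0.0216 and 0.0244), and for Calr that test did not pass (adjusted p = 0.107). Of all tested genes, 15.0% were called between periods in females and 2.71% for the interaction.

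H2-Aa, the class II alpha chain, was the class II gene with the clearest difference between the sexes. Its lowest, median and highest libraries were at 2435, 3420.2 and 3781 normalized counts in inactive females and 1769.9, 2263 and 2960.0 in inactive males. In the active period they were at 2783, 3356 and 3848 in females and 2403, 2627 and 3666 in males. The inactive groups overlapped through 1 low female library and the higher male ones, and the active groups overlapped more widely. H2-Aa was 1.45-fold lower in males in the inactive period (log2 fold -0.53 ± 0.13, adjusted p = 0.00101). In the active period its log2 fold was -0.26 ± 0.13 and did not pass (adjusted p = 0.0773). That value sat near the threshold, and it passed without active male replicate 2 (log2 fold -0.34, adjusted p = 0.0203), active female replicate 6 or inactive female replicate 4 (adjusted p = 0.0427 and 0.0489). With DESeq2 the adjusted p was 0.0429, with edgeR it did not pass, and over the alternatives run it ranged from 0.00104 to 0.159.

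Its partner chain H2-Ab1 had lowest, median and highest libraries at 1378, 1915 and 2364 in inactive females and 1120.1, 1473 and 1642 in inactive males. It was lower in males there (log2 fold -0.37 ± 0.12, adjusted p = 0.0132), with overlapping groups. In the active period it was at 1869 ± 268 in females and 1644 ± 203 in males (log2 fold -0.18 ± 0.12, adjusted p = 0.21). The beta chain H2-Eb1 was at 2613 ± 331 in active and 2611 ± 487 in inactive females and at 2525 ± 547 in active and 2109 ± 319.6 in inactive males. Its log2 folds, male over female, were -0.06 ± 0.14 (adjusted p = 0.715) and -0.30 ± 0.14 (adjusted p = 0.0812), and neither passed. In the inactive period it passed without inactive female replicate 4 (log2 fold -0.41, adjusted p = 0.00888) or inactive male replicate 2 (log2 fold -0.36, adjusted p = 0.0397). It also passed with library weights (adjusted p = 0.0291) and with upper quartile or equal totals scaling (0.033 and 0.00141).

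Cd74, the invariant chain that escorts class II molecules, was at 4089 ± 489 in active and 3972 ± 656 in inactive females and at 3883 ± 780.2 in active and 3306 ± 534 in inactive males. Its libraries ran from 3568 to 4716, 2779.9 to 4563, 3104 to 5198 and 2649 to 3825 in that order, so all groups overlapped. The log2 folds, male over female, were -0.09 ± 0.14 (adjusted p = 0.593) and -0.26 ± 0.14 (adjusted p = 0.106). The inactive difference passed without inactive female replicate 4 (log2 fold -0.36, adjusted p = 0.0172), with DESeq2 (adjusted p = 0.0487), with library weights (0.0481) and with upper quartile or equal totals scaling (0.041 and 0.00162). The ratio of Cd74 to H2-Ab1 did not differ past the threshold (exact permutation test, adjusted p = 0.188 in the active and 0.173 in the inactive period). One active male library, replicate 2, held the highest level of any library for H2-Eb1, Cd74 and H2-K1, and the highest of the male libraries for H2-Aa, H2-Ab1, B2m and H2-D1.

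Ciita, the transactivator of class II genes, was scarce, with 101 to 261 reads per library. Its lowest, median and highest libraries were at 128, 186 and 232 normalized counts in active females and 113, 122 and 162 in active males. In the inactive period they were at 115, 167 and 213 in females and 124, 145 and 171 in males. Ciita was 1.41-fold lower in males in the active period (log2 fold -0.50 ± 0.14, adjusted p = 0.00349), where the groups overlapped, and had a log2 fold of -0.17 ± 0.14 in the inactive period (adjusted p = 0.309). H2-Aa and H2-Ab1 were instead called in the inactive and not in the active period, but the interaction of sex and period passed for none of these genes. For Ciita the interaction was -0.32 ± 0.20 (adjusted p = 0.4), and for H2-Aa 0.27 ± 0.18 (adjusted p = 0.429). Ciita overlaps Dexi on the opposite strand, with 1.46% of its 50-base stretches shared.

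Of 14 other tested regulators of MHC transcription, 7 were lower and 2 higher in males in the active period, and 5 and 2 in the inactive period. With equal totals scaling 11 and 12 of them were lower and none higher. Nlrc5, the class I counterpart of Ciita, was at 309 ± 47.1 in active females and 182 ± 33.9 in active males (log2 fold -0.76 ± 0.13, adjusted p = 1.37e-05), and its log2 fold in the inactive period was -0.56 ± 0.13 (adjusted p = 0.000808). Irf8, a transcription factor of macrophages and dendritic cells, Creb1, which binds the X box region, and Nfyb, a subunit of the factor that binds the Y box, were lower in males in both periods. Their log2 folds in the active period were -0.56 ± 0.12, -0.43 ± 0.08 and -0.28 ± 0.06. Creb1 was also the 1 regulator higher in the active period in females (log2 fold 0.33 ± 0.08, adjusted p = 0.00536), where 1 other was lower, and 2 of the 14 were higher and 1 lower in active males.

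The other class II genes on the list split. Of 9 tested, 4 were higher and 2 lower in males in the active period, and 2 and 3 in the inactive period. With equal totals scaling 1 was higher and 5 lower, then none and 4. Ctss, the protease that cuts the invariant chain, was at 849 ± 132 in active females and 515 ± 52.9 in active males (log2 fold -0.71 ± 0.15, adjusted p = 0.00022) and was lower in inactive males too (log2 fold -0.66 ± 0.15). Ifi30, a reductase of the same compartment, was higher in males (log2 folds 0.50 ± 0.08 and 0.42 ± 0.08). March8, a ligase that can remove class II from the surface, was higher in males by 0.19 ± 0.05 and 0.21 ± 0.05 on the log2 scale, a direction that turns, without a call, with equal totals scaling. Lgmn, a lysosomal protease that the kidney tubule also makes, was lower in active than in inactive females (log2 fold -0.33 ± 0.05, adjusted p = 5.57e-05).

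**Figure D3:**
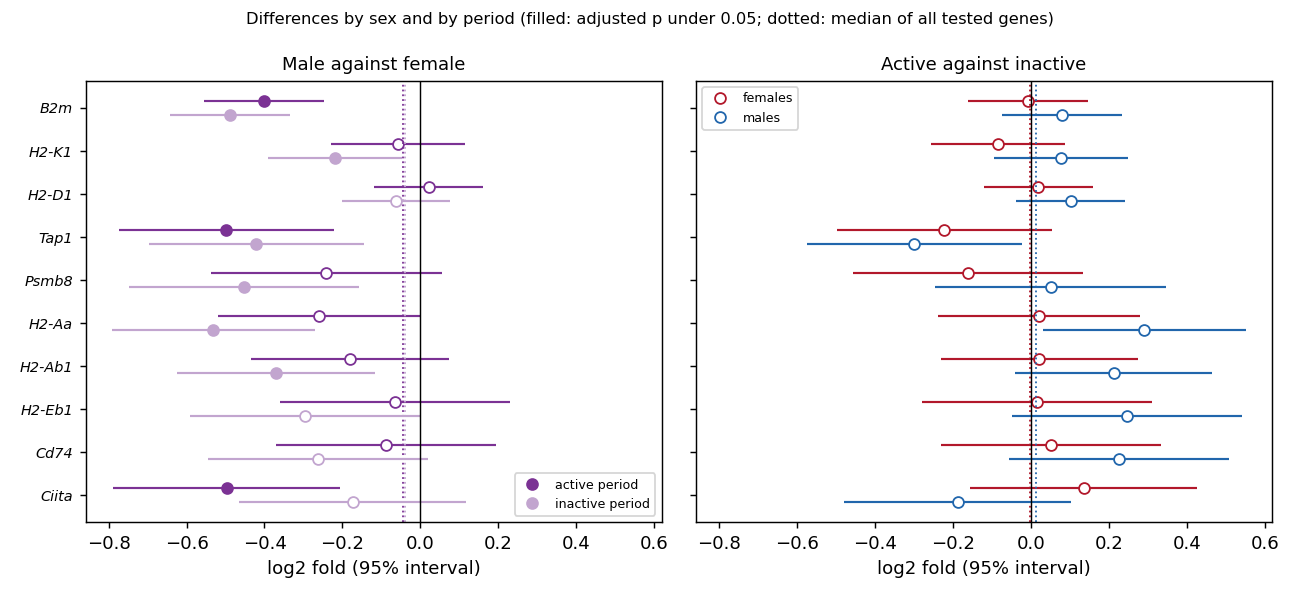
Log2 folds with 95% intervals (horizontal axis) of the 10 genes, male against female on the left and active against inactive on the right; filled points have an adjusted p under 0.05, open ones do not, and dotted lines are the median of all tested genes. In the left panel 9 of 20 points are filled and all of those lie below 0, and in the right panel no point is filled.

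Between the periods, 0 of 10 members passed in females (background 15.0% of tested genes) and 0 of 10 in males (background 15.4%) by limma, and 0 by edgeR and DESeq2. At an unadjusted p under 0.05 there were 0 in females and 2 in males, H2-Aa and Tap1. H2-Aa had a log2 fold, active over inactive, of 0.29 ± 0.13 in males (adjusted p = 0.118) and 0.02 ± 0.13 in females (adjusted p = 0.944). Without inactive male replicate 2 the male value passed (log2 fold 0.37, adjusted p = 0.0396). Tap1 had -0.30 ± 0.14 in males and -0.22 ± 0.14 in females (adjusted p = 0.131 and 0.308). The intervals allow changes of some size. Over the 10 genes the 95% intervals lay within -0.50 and 0.43 on the log2 scale in females and within -0.57 and 0.55 in males. The narrowest was that of H2-D1, -0.12 to 0.16 in females and -0.04 to 0.24 in males, and a missed threshold does not show that a level stayed the same. The difference of the period change between the sexes passed for 0 of 10 members with limma, edgeR and DESeq2, and 0 had an unadjusted limma p under 0.05 (background 2.71%).

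Per kilobase of exon the 10 genes spanned a wide range of levels. The length used was the union of all annotated exons, from 860 bases in B2m to 9535 in Ciita, and can exceed that of the main transcript. The order therefore depends in part on the annotation. Before this division H2-Aa (3798 bases) had more counts than H2-Eb1 (1944 bases) in every group. B2m stood at 8537 to 12028 normalized counts per kilobase (lowest and highest group mean). Cd74 (1969 to 2435), H2-D1 (2258 to 2430.0) and H2-K1 (2054 to 2389) formed the next level, and their group means overlap in this order. H2-Eb1 followed at 1085 to 1344, then H2-Aa at 605 to 880.3 and H2-Ab1 at 555 to 728. Psmb8 was at 67.6 to 92.4, Tap1 at 45.1 to 74.5 and Ciita at 13.4 to 19.2. The chains that end up in the molecules were thus far more abundant than Psmb8, Tap1 and Ciita.

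Among libraries of the same group most pairs of members rose and fell together. The share of all gene pairs that do so was not counted, so the counts of pairs have no background. After subtraction of each group's mean, 37 of 45 pairs of members had a correlation with an adjusted p under 0.05 (permutation within groups, 24 libraries, adjusted over 45 pairs), 32 did by rank, and 29 did without the 2 libraries farthest from the median. The 4 class II genes H2-Aa, H2-Ab1, H2-Eb1 and Cd74 were the tightest, with Pearson r of 0.89 to 0.95 and Spearman rho of 0.88 to 0.94 over their 6 pairs (all permutation p = 1e-05, the smallest these resamples can give, adjusted p = 5.62e-05). Without the 2 libraries farthest from the median, r was 0.86 to 0.92. That median was of 1 gene of each pair, so the libraries left out could differ between pairs. H2-K1 and H2-D1 had r = 0.93 and rho = 0.93 (permutation p = 1e-05), and share part of their sequence. Class II genes with class I chains had r of 0.74 to 0.83, all 12 pairs passing.

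Tap1 and Ciita had lower r with the others. Tap1 had r of 0.16 to 0.42 with the class I chains and the 4 class II genes, and none of those 7 pairs passed. Ciita had r of 0.40 to 0.67 with the other 9 members, of which 8 passed, and 4 by rank. Without the 2 farthest libraries r was 0.28 to 0.50 and only the pair with H2-K1 passed (permutation test, adjusted p = 0.0421). The libraries left out differed between these pairs and, except in the pairs with Tap1 and Psmb8, were set by the gene other than Ciita. Within the 12 female libraries Ciita had r of 0.42 to 0.88 with the other members, and within the 12 male libraries 0.05 to 0.44. For H2-Ab1 these were 0.88 in females and 0.14 in males. Whether the sexes differ in this was not tested.

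**Figure D4:**
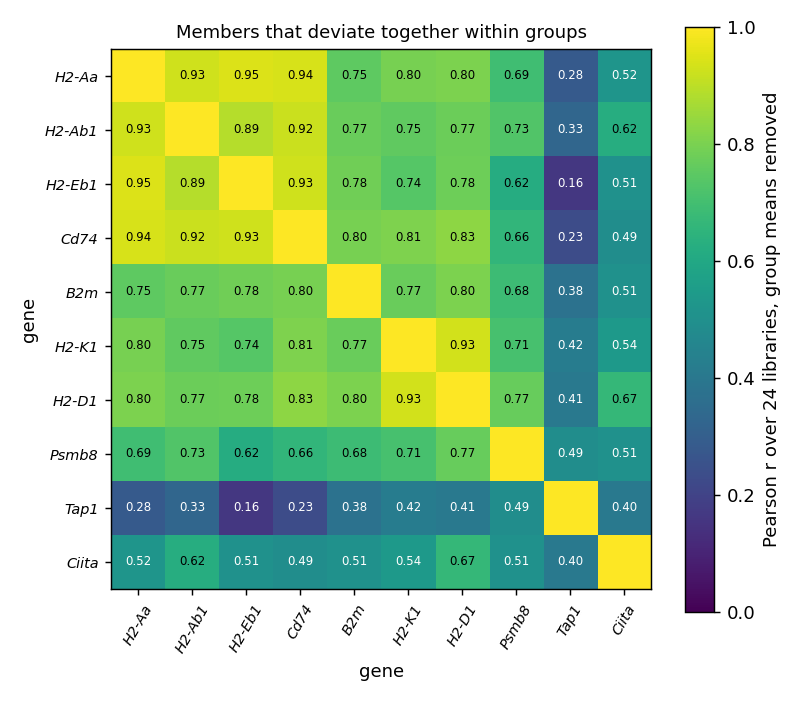
Pearson r between members over 24 libraries after group means were removed (colour and printed value, 0 to 1). The block of H2-Aa, H2-Ab1, H2-Eb1 and Cd74 has the highest values, and the row of Tap1 the lowest.

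In bulk kidney, fewer cells of a type and less RNA per cell cannot be told apart, so the levels of leukocyte markers are given beside these results. Of 12 macrophage and monocyte markers, 5 were lower and 1 higher in males in the active period and 8 lower in the inactive period, with medians of -0.30 and -0.54 (log2). With equal totals scaling 7 and 10 were lower and none higher. Mrc1, Cx3cr1 and Adgre1 were lower in both, and C1qa in the inactive period. Their summed level was 4195 to 5231 normalized counts in active and 4084 to 5439.7 in inactive females, against 3847 to 5512 in active and 3425 to 4513 in inactive males. No marker of this list was at 0 in any group. The highest sum, in the active period, belonged to the male library with the highest H2-Eb1 and Cd74. That library, active male replicate 2, also had the highest sums of the constitutive proteasome (40561) and of the class I peptide supply (117499). Its size factor was the lowest of all libraries (0.828). The part of macrophages and monocytes in the sex difference of class II was not tested.

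Library by library, the summed macrophage and monocyte level had its highest r with the class II genes. It was 0.90 with Cd74, 0.86 with H2-Eb1, 0.83 with H2-Aa and 0.83 with H2-Ab1 over 24 libraries (rho 0.89, 0.84, 0.83 and 0.80; permutation p = 1e-05, 1e-05, 1e-05 and 2e-05; adjusted p at most 0.000229 over 80 relations). Within females alone these were 0.89, 0.88, 0.88 and 0.87, and within males 0.91, 0.85, 0.80 and 0.80. With B2m r was 0.71, with H2-D1 0.63 and with H2-K1 0.61 (adjusted p = 0.0016, 0.00728 and 0.0128 by permutation). With Psmb8, Ciita and Tap1 it was 0.39, 0.39 and -0.00, none of which passed. The relation was not particular to that list. The pan-leukocyte sum had r of 0.79, 0.75, 0.83 and 0.75 with Cd74, H2-Eb1, H2-Aa and H2-Ab1. The T and NK cell sum had r of 0.74, 0.72, 0.73 and 0.75 with them (permutation test, adjusted p at most 0.0016 for both sums). B2m had a higher r with the T and NK cell sum (0.74). By rank, H2-K1 was closer to the pan-leukocyte sum (rho 0.73, against 0.55). No member passed with the B cell sum. The dendritic cell sum had r of 0.59, 0.58, 0.71 and 0.62 with Cd74, H2-Eb1, H2-Aa and H2-Ab1 (permutation test, adjusted p at most 0.0154). Outside leukocytes, the constitutive proteasome sum passed with Cd74 alone (r = 0.53, permutation test, adjusted p = 0.0366). Within females that r was 0.10 and within males 0.72. With the summed interferon-induced genes Tap1 had r = 0.59 (permutation test, adjusted p = 0.0154), though by rank this did not pass (rho 0.48, adjusted p = 0.0589). Tap1 passed with no leukocyte list. B2m, H2-K1, H2-D1, H2-Aa and H2-Eb1 passed with the interferon sum too, at r of 0.56, 0.51, 0.53, 0.54 and 0.51. Their adjusted p was at most 0.0366 by the permutation test, and each also passed by rank. H2-Ab1, Cd74 and Ciita did not pass with it (r = 0.48, 0.44 and 0.33). Psmb8 had its highest r with the T and NK cell markers (0.71, adjusted p = 0.0021), then with the interferon-induced genes (0.66, adjusted p = 0.00446), the dendritic cell markers (0.59, adjusted p = 0.0128) and the pan-leukocyte markers (0.52, adjusted p = 0.0321). With the endothelial sum Psmb8 and H2-Aa passed by r (0.51 and 0.54, permutation test, adjusted p = 0.0349 and 0.0327) and not by rank.

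**Figure D5:**
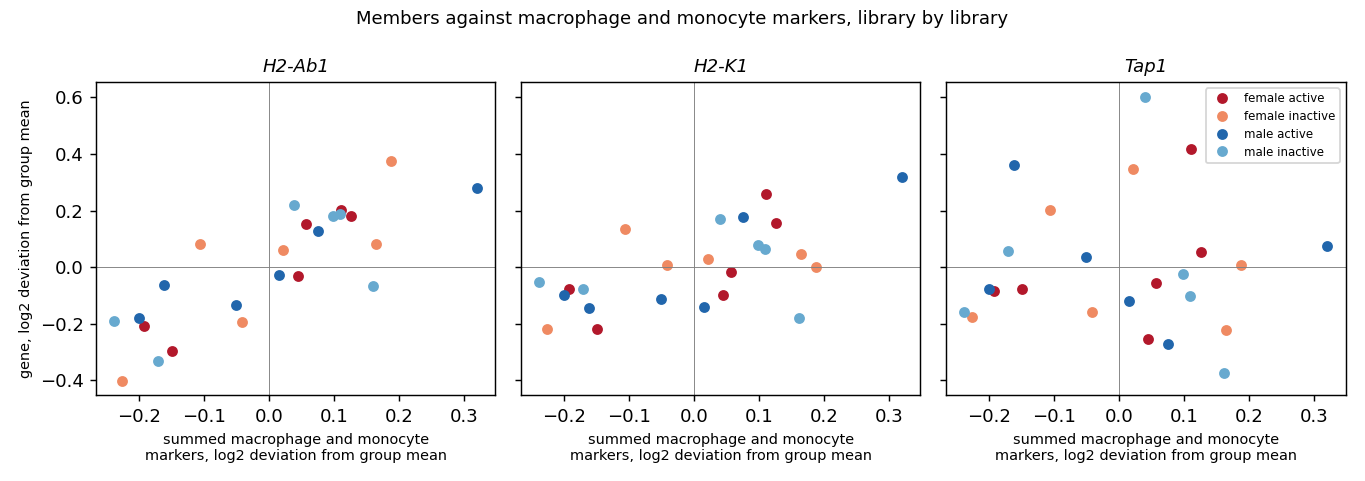
Log2 deviation of each library from its group mean, for H2-Ab1, H2-K1 and Tap1 (vertical axes) against the summed macrophage and monocyte markers (horizontal axes); dots are 24 libraries. H2-Ab1 follows the sum with r = 0.83 and H2-K1 with r = 0.61, and Tap1 does not follow it.

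The other leukocyte lists were shorter. Of 5 pan-leukocyte markers, 2 were lower in males in the active and 3 in the inactive period, among them Ptprc (log2 folds -0.93 ± 0.12 and -0.77 ± 0.12). Of 9 dendritic cell markers, 3 were lower in the active period, and 4 lower and 1 higher in the inactive period, with Zbtb46 at -0.56 ± 0.09 and -0.99 ± 0.09. Of 7 tested T and NK cell markers, 4 were lower in each period, at summed levels of 226 to 379.5 and 216 to 335 in females and 136 to 252 and 107 to 192 in males (active, then inactive). Of 5 tested B cell markers, none passed in the active period and 1 was lower in the inactive period. Of 8 endothelial markers, 7 were lower in males in the active and 8 in the inactive period, with medians of -0.68 and -0.93. Their sums were 18134 to 23962 and 15547 to 21485 in females and 13188 to 15669.8 and 9025 to 15029 in males. With equal totals scaling the counts lower in males in the active and inactive period were 4 and 5 for pan-leukocyte, 7 and 6 for dendritic cell, 5 and 6 for T and NK cell, 1 and 1 for B cell and 8 and 8 for endothelial markers, with none higher. Endothelium carries class I and, in kidney, some class II, and its part in these differences was not tested either.

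Genes that interferons induce, as they do class I, Tap1 and Psmb8, were mostly lower in males. Of 20 on the list, all tested, 14 were lower in the active and 18 in the inactive period and none was higher (medians -0.44 and -0.64). With equal totals scaling 17 and 20 were lower (medians -0.72 and -0.91). The largest difference among those named by rule was in Gbp3, a guanylate binding protein, at 2482 ± 865 in active females and 406 ± 72.1 in active males (log2 fold -2.55 ± 0.22, adjusted p = 2.99e-09). Rsad2, known as viperin, was lower in males (log2 fold -0.95 ± 0.10 in the active period) and higher in the active period in both sexes (log2 folds 0.64 ± 0.10 in females and 0.64 ± 0.10 in males, adjusted p = 4.96e-05 and 0.000103). Gbp7 and Ifit2 had log2 folds of -1.22 ± 0.11 and -0.98 ± 0.13 in the active period, male over female. Of 7 tested co-stimulation genes, 5 were lower in males in the active period, and 3 lower and 1 higher in the inactive period (5 and 4 lower, none higher, with equal totals scaling). Cd274, which restrains T cells, had log2 folds of -0.79 ± 0.16 and -0.70 ± 0.16, and Cd40 of -0.63 ± 0.20 and -0.75 ± 0.20.

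The genes most like H2-Ab1 over the 24 libraries, with group means removed and among 13644 other genes with a mean of at least 50, were Eri3 (r = 0.83), Ctss (0.82), Coro1a (0.81), Mgp (0.80), C1qc (0.80) and Slamf9 (0.77). Ctss, Coro1a and C1qc are known from leukocytes, the last from macrophages. Placed among those 13644 genes by r with H2-Ab1, each of H2-Aa, H2-Eb1 and Cd74 would rank 1. H2-D1 would rank 6, B2m 7, H2-K1 10, Psmb8 19, Ciita 83 and Tap1 1784. Most like H2-K1 were H2-Q7 (r = 0.80), Asna1 (0.80), Nlrc5 (0.78), Gnai2 (0.77), Rfx2 (0.76) and Psme1 (0.76). H2-Q7 shares sequence with H2-K1. These are rankings, with no test.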

How the data were processed

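The authors deposited a signal of normalized counts per gene. Its values lie on even steps within each library, so they are taken as counts divided by 1 size factor per library. Dividing by the step gave whole reads for 100% of values (within 0.05). Per the submitters' processing notes, tools included Trim Galore (0.6.10), featureCounts, Subread (2.0.6) and DESeq2 (1.28.1), on GRCm39. Strand and aligner settings were in none of the sources used here. Recovered depth was 31039867 to 39302246 reads per library.

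The 17333 genes whose mean was 10 or more normalized counts entered limma 3.58.1 (R 4.3.3; trended, robust prior) as log2(normalized count + 1), with groups from the labels, all 24 libraries and 20 residual degrees of freedom. Each of 5 contrasts was adjusted by Benjamini-Hochberg. Correlations of deviations from group means used 100000 permutations within groups. Symbols, exon lengths and shared 50-base stretches came from the GENCODE annotation of GRCm38, and promoters from RefSeq.

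The 10 genes and 17 gene lists were chosen with earlier results of these data known. All members are named, as are up to 4 further genes per list with the smallest p over the contrasts and the 6 genes most like H2-Ab1 and H2-K1. Tap2, Psmb6, Psmb9 and Psmb10 were added after their values were seen. The members' tests were recomputed with a pseudocount of 0.5 or 5, without the filter, with TMM, upper quartile or equal totals scaling, with the compared groups alone (not for the interaction), with library weights, with an untrended, non-robust prior, with edgeR 4.0.16 or DESeq2 1.42.0 on recovered reads, without each library, and with title numbers as blocks (sex and interaction only). Correlations were recomputed without the 2 farthest libraries, and list counts under the 3 scalings. Simulated data with known changes were used to test the scripts.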

Additional observations from a re-analysis of the deposited data

Results flagged for a closer look

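Tap1 in inactive males had 1 library far from the others of its group. Inactive male replicate 5 was at 457.8 normalized counts and the next highest at 313.2, a gap of 0.641 of the group's range, above the limit of Dixon's test at 95% for 6 libraries. It was 1 such library among 40 combinations of gene and group, where chance gives about 1 in 20. Without it the log2 fold of Tap1 in the inactive period, male over female, was -0.54 (limma, adjusted p = 0.000508).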

How the results depend on the processing

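The 3 and 6 members called between the sexes in the active and inactive period became 10 and 10 with equal totals scaling, and stayed within 1.5 times of the counts under all other alternatives run. H2-D1 in the active period turned to log2 folds of -0.0538 with upper quartile scaling (adjusted p = 0.513) and -0.25 with equal totals (adjusted p = 0.00402). With each library left out, the counts were 0 to 0 for the period in females and the interaction, 0 to 1 for the period in males, 3 to 4 for sex in the active and 5 to 8 in the inactive period. The calls of B2m, Tap1, Ciita, H2-Aa, H2-Ab1 and Psmb8 between the sexes held under all of these. No label says that the numbers in the titles pair the libraries. Of 12 same-numbered pairs, 1 correlated above 0.1. Compared with the 6 libraries of the other sex in the same period, 9 of 24 libraries correlated best with their own number. Whether that is more than chance gives was not tested, so pairing stays undecided. With the replicate block, 4 members were called in the active period, 8 in the inactive period and 0 for the interaction. The members gained under it were H2-Aa in the active period (adjusted p = 0.0114) and H2-Eb1 and Cd74 in the inactive period (adjusted p = 0.00542 and 0.0484). Ciita, with 101 reads in its poorest library, is limited most by depth.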
